A study of Mus musculus with 6 samples.

Results

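Aldehyde dehydrogenases were followed through the arrays as a set of 10 mouse genes, Aldh1a1, Aldh1a2, Aldh1a3, Aldh1b1, Aldh2, Aldh3a2, Aldh4a1, Aldh6a1, Aldh7a1 and Aldh9a1. They were chosen by name, and every probe set that the platform annotation gives to 1 of them and to no other gene was taken, which made 139 of the 212097 probe sets with 1 gene, and 10 of 20352 genes. Expression was measured in bone marrow haematopoietic stem cells of the mouse, sorted by the KLS gate (c-Kit+, Sca-1+ and without lineage markers) from among cells lacking surface CD34. The tested cells came from Vav-Cre positive mice with floxed beta-catenin alleles (3 arrays, called floxed; their genotype label reads Beta-catenin) and were set against controls (3 arrays, whose label gives no alleles or Cre status). Vav-Cre recombines floxed DNA in blood-forming cells generally, not in stem cells alone. The age, sex and strain of the mice are not given in the sources used here, and neither is whether an array came from 1 animal or from a pool. The spread behind each p-value is therefore that between these arrays, part or all of which may be technical.

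Aldehyde dehydrogenases oxidise reactive aldehydes to carboxylic acids with NAD+ or NADP+. The Aldh1a enzymes make retinoic acid from retinaldehyde, Aldh2 clears acetaldehyde in mitochondria, and other members finish steps in the breakdown of fatty aldehydes and amino acids. High aldehyde dehydrogenase activity is used to sort stem cells and progenitors, and in mice Aldh2 together with the Fanconi anaemia repair genes protects blood stem cells from aldehyde damage. Beta-catenin, encoded by Ctnnb1, is the co-activator that joins TCF/LEF factors in canonical Wnt signalling, so the comparison asks whether the levels of these enzymes' transcripts differ in stem cells of floxed mice.

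The sequences just before the gene starts are shown for Aldh1a1, the member with letters of the TCF/LEF motif there, and for Aldh1a2, the member none of whose probe sets was bright enough to test. They come from RefSeq on the assembly GRCm38.p6, each 250 bases long, on the plus strand and read 5′ to 3′ toward the start. In the window at chr19:20492333-20492582, capitals mark letters of the TCF/LEF motif. In the other Aldh1a1 window, at chr19:20601718-20601967, they mark CCAAT, and in the Aldh1a2 window, at chr9:71215539-71215788, each CG.
Aldh1a1, upstream window: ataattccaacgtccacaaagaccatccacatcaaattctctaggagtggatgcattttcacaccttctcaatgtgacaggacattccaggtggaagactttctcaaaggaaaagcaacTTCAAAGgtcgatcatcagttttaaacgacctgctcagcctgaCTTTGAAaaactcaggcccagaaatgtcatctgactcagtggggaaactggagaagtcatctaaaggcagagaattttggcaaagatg
Aldh1a1, downstream window: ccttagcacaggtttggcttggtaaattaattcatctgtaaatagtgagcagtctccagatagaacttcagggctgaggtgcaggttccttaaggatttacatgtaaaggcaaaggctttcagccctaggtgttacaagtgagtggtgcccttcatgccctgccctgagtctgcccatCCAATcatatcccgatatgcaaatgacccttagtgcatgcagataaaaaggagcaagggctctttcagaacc
Aldh1a2: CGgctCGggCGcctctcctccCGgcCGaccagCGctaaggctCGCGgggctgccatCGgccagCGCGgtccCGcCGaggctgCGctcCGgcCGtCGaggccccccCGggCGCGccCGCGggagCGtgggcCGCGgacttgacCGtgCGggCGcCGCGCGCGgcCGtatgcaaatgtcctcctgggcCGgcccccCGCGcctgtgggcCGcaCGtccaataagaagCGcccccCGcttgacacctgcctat
The RefSeq table had 9 windows for 7 of the 10 genes. The TCF/LEF letters searched were CTTTGAA, or with another ending CTTTGAT, also CTTTGTA, and also CTTTGTT, on either strand, and 14.8% of 32851 windows of this length held at least 1 of them. Among the 9 windows only the upstream Aldh1a1 window held them, with 2 matches, on the minus strand 131 to 125 bases and on the plus strand 88 to 82 bases before the start. The other letters searched, CCAAT and GGGCGG on either strand, stood in 33.8% and 32.7% of all windows. CCAAT was found in 7 of the 9 windows and GGGCGG in those of Aldh1b1 and Aldh3a2. The Aldh1a2 window held 40 CG pairs, more than 98.7% of all windows, against a median of 6, while the Aldh1a1 windows held 3 and 1. A match of letters describes these windows and is not evidence of a bound factor.

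Before the members, the arrays were checked against their labels. The deposited values are log2 expression values, and the array medians lay between 7.56 and 7.65. Ctnnb1, the targeted gene, had 5 probe sets past the test, whose mean was 6.12, 6.36 and 5.72 on the floxed arrays, against 11.29, 11.43 and 11.40 on the control arrays (limma adjusted p between 1.19e-05 and 0.00137). Its other 11 probe sets averaged 10.97 to 11.09 on floxed arrays and 10.92 to 11.12 on control arrays, so the lower level was seen in only some of its probe sets. Gene values correlated at 0.962 to 0.972 between floxed arrays and at 0.880 to 0.934 between control arrays. Pairs of a floxed and a control array lay at 0.915 to 0.963, so some were more alike than any pair of control arrays. All 9 stem cell markers in the table passed the filter on dim probe sets, with mean levels of 10.45 to 10.59 on floxed arrays and 10.30 to 10.62 on control arrays. Markers of mature granulocytes and macrophages were also present, and all 11 tested lay lower in floxed means, against 6683 of all 14586 genes. The sizes were unequal: the median was -0.33 on the log2 scale, and the 2 markers nearest to no change stood at -0.0013 and -0.0118. In limma 0 of the 11 passed the adjusted threshold and 2 had an unadjusted p under 0.05, against 3.7% of all genes. Averaged over the 11 markers, the level was 9.44, 9.49 and 10.14 on floxed arrays, against 10.38, 10.45 and 9.47 on control arrays. Thus 1 array of each group stood with the other group. In a bulk sample, fewer cells of a type and less RNA per cell cannot be told apart.

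No aldehyde dehydrogenase gene passed the test between floxed and control stem cells, and the values of the groups overlapped for every member. A probe set was kept if its mean over the 6 arrays reached a log2 value of 7.60, the median of such means, and a gene's value was the median of its kept probe sets. Of the 139 probe sets 93 were kept, which gave values for 9 genes, all but Aldh1a2. With limma and Benjamini-Hochberg adjustment over 14586 genes, 0 of 9 members passed an adjusted p of 0.05, as did 0% of all genes. Ctnnb1 itself did not pass as a gene, its value being the median of 5 probe sets that passed alone and 11 that did not. A change confined to some probe sets of a gene can therefore be missed at the gene level. No member had an unadjusted p under 0.05, against 3.7% of all genes, and none had groups that did not overlap, against 8.44%. The smallest of the 9 adjusted p-values was 0.999. The floxed minus control differences ran from -0.20 to 0.21 on the log2 scale, with 4 above 0 and 5 below and a median of -0.02. Over all genes 7903 lay above 0 and 6683 below, with a median of 0.02. With quantile normalization 2 of the 9 lay above 0, with a median of -0.05, and the median over all genes turned to -0.02. With equal array medians 2 of the 9 did, with a median of -0.05, against -0.01 over all genes. Without such further normalization the median absolute difference was 0.08 over the members and 0.12 over all genes. The 95% intervals of the 9 differences reached no farther than 0.66 from 0 on the log2 scale.

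**Figure D1:**
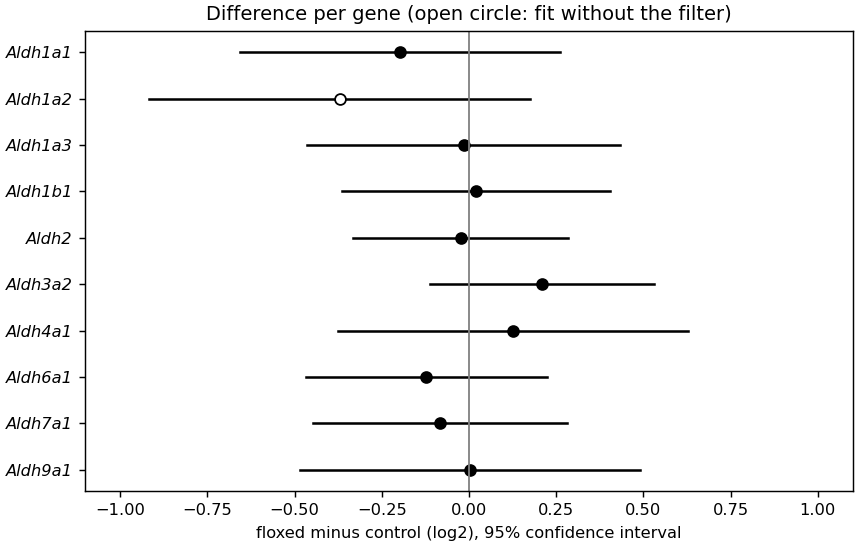
Floxed minus control difference of each aldehyde dehydrogenase gene on the log2 scale (horizontal axis), with lines for the 95% confidence interval. Every interval crosses 0; the open circle is Aldh1a2, which had no kept probe set and is taken from the fit without the filter.

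The retinaldehyde dehydrogenases were measured with unequal support. Aldh1a1, the cytosolic enzyme long linked to the activity used in stem cell sorting, kept all 11 probe sets, of which 2 reached the 75th percentile of the table (9.20). Its gene value was 8.16, 8.33 and 8.91 on the floxed arrays, against 8.68, 8.83 and 8.49 on the control arrays. Floxed replicates 1 and 2 were the lowest arrays and floxed replicate 3 the highest, so the groups overlapped. The means were 8.47 ± 0.39 in floxed and 8.67 ± 0.17 in control cells (SD, n = 3 each), a log2 difference of -0.20 (SE 0.21, 95% interval -0.66 to 0.26). Leaving out 1 array moved it to -0.42 without floxed replicate 3, to -0.045 without floxed replicate 1, to -0.13 without floxed replicate 2 and to -0.12 without control replicate 2.

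Aldh1a2, the main retinoic acid source of the early embryo, kept 0 of 14 probe sets, whose means lay between 3.36 and 6.56. Without the filter its gene value was 5.02, 4.60 and 5.20 in floxed cells, against 5.26, 4.88 and 5.80 in control cells. These values overlapped, and lay in the range where detection calls, not used here, would be needed to tell signal from background. The log2 difference was -0.37 (SE 0.25, 95% interval -0.92 to 0.17, limma adjusted p = 0.915 among 20352 genes). In this fit 0.00983% of genes passed the adjusted threshold and 5.22% had an unadjusted p under 0.05; 0 of the 10 members did either.

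Aldh1a3, the remaining retinaldehyde dehydrogenase, kept 4 of 15 probe sets. Its value was 8.09, 8.35 and 8.14 in floxed cells, against 8.05, 7.98 and 8.60 in control cells. The highest and the lowest array were both controls. The means were 8.19 ± 0.14 in floxed and 8.21 ± 0.34 in control cells, a log2 difference of -0.02 (SE 0.20), which turned to 0.31 when all 15 probe sets were used. Its kept probe sets differed in direction, 1 higher and 3 lower in floxed means.

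**Figure D2:**
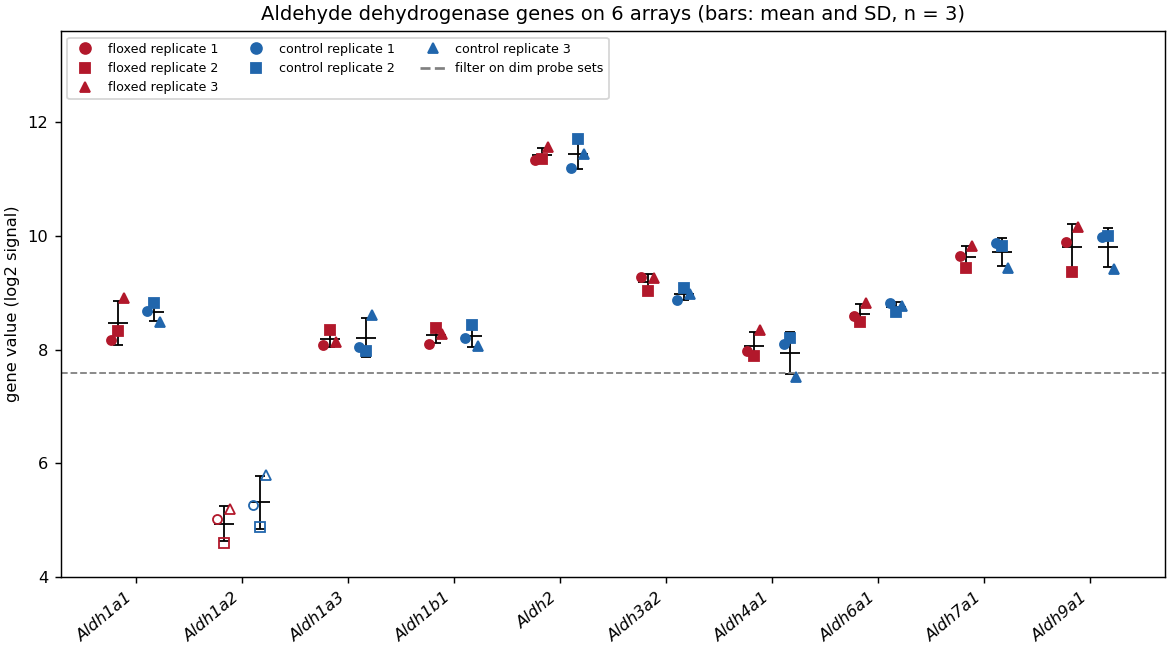
Gene value (log2, vertical axis) of the 10 aldehyde dehydrogenase genes on each array, floxed left and control right for each gene, with bars for the mean and SD (n = 3). Floxed and control points overlap for every gene; open symbols are Aldh1a2 without the filter, and the dashed line is the filter. Heights are not compared between genes, since each has its own probes.

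Aldh2, the mitochondrial enzyme that clears acetaldehyde, kept all 14 probe sets, of which 13 reached the 75th percentile. Its value was 11.33, 11.36 and 11.56 in floxed cells, against 11.19, 11.70 and 11.44 in control cells. Control replicates 1 and 2 were the lowest and the highest of the 6 arrays, with all floxed arrays between them. The means of 11.42 ± 0.13 in floxed and 11.44 ± 0.26 in control cells gave a log2 difference of -0.02 (SE 0.14), with an interval of -0.33 to 0.29 that was the narrowest among the members. Its probe sets split evenly, 7 higher and 7 lower in floxed means. Aldh1b1, a related mitochondrial enzyme, rested on 1 kept probe set of 2. It read 8.10 to 8.38 in floxed cells and 8.07 to 8.43 in control cells, a log2 difference of 0.02 (SE 0.17).

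Aldh3a2, the fatty aldehyde dehydrogenase of the endoplasmic reticulum, had the smallest unadjusted limma p of the members, 0.179. It kept 9 of 12 probe sets and had values of 9.27, 9.04 and 9.26 in floxed cells, against 8.88, 9.09 and 8.97 in control cells. Floxed replicates 1 and 3 were above all controls, and floxed replicate 2 lay among them. The means were 9.19 ± 0.13 in floxed and 8.98 ± 0.11 in control cells, a log2 difference of 0.21 (SE 0.15, 95% interval -0.11 to 0.53). With only its 3 probe sets past the 75th percentile the difference was -0.08.

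The enzymes of amino acid breakdown gave 3 further comparisons. Aldh4a1, which turns pyrroline-5-carboxylate into glutamate in proline breakdown, kept 7 of 20 probe sets and read 7.97, 7.88 and 8.35 in floxed cells, against 8.10, 8.21 and 7.52 in control cells. The lowest array was control replicate 3 and the highest floxed replicate 3, and the log2 difference was 0.13 (SE 0.23). Aldh6a1, the methylmalonate semialdehyde dehydrogenase of valine and thymine breakdown, kept 11 of 14 probe sets and read 8.58, 8.48 and 8.82 in floxed cells, against 8.83, 8.67 and 8.77 in control cells. Floxed replicates 1 and 2 were below every control and floxed replicate 3 was level with the highest, for a log2 difference of -0.12 (SE 0.16). Aldh7a1, which acts in lysine breakdown, had the most probe sets, 21 kept of 22 with 13 past the 75th percentile. It read 9.64, 9.43 and 9.83 in floxed cells, against 9.88, 9.83 and 9.44 in control cells. The groups spanned almost the same range, and the log2 difference was -0.08 (SE 0.17).

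Aldh9a1, which oxidises trimethylaminobutyraldehyde in carnitine synthesis, had the largest spread over the 6 arrays among the 9 tested genes. It kept all 15 probe sets, 11 past the 75th percentile, and read 9.89, 9.37 and 10.15 in floxed cells, against 9.99, 10.003 and 9.41 in control cells. Floxed replicate 2 and control replicate 3 were low and the other arrays high, so each group held the same pattern. The means were 9.80 ± 0.40 in floxed and 9.80 ± 0.34 in control cells, a log2 difference of 0.00 (SE 0.22, 95% interval -0.48 to 0.49). Its probe sets varied unequally: the 10th in number read 10.65, 8.03 and 10.50 in floxed cells, against 10.38, 10.003 and 9.25 in control cells. The low reading of floxed replicate 2 was the farthest of any in this gene. The 11th read 11.37, 11.39 and 11.48 in floxed cells and 11.37, 11.35 and 11.48 in control cells. When probe sets were averaged rather than summarised by their median, the log2 difference of Aldh9a1 was -0.06.

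Single probe sets were read in the same way. In the fit over 120788 kept probe sets 0.00414% passed the adjusted threshold, all of Ctnnb1, and 0 of the 93 of aldehyde dehydrogenases did. At an unadjusted limma p under 0.05 there were 0 of 93 members' probe sets, against 4.35% of all kept ones. Without the filter there were 0 of 139, against 4.61%. Without control replicate 1 there were 10 of 94, against 17235 of all 120788, and in the other alternatives at most 2. Groups did not overlap in 8 of the 93, against 9.45% of all kept probe sets. Of the 93, 40 lay higher and 53 lower in floxed means. Aldh7a1 held probe sets of both directions among the 8: its 21st read 8.40, 8.06 and 8.07 in floxed cells, against 7.73, 7.85 and 7.66 in control cells, and its 14th read 9.80, 9.80 and 9.81 in floxed cells, against 9.88, 10.21 and 10.12 in control cells. The 21st was higher on every floxed array and the 14th lower, with log2 differences of 0.43 and -0.27. Aldh3a2 had 1 such probe set, the 10th, at 9.33, 9.36 and 9.35 in floxed cells, against 8.88, 9.19 and 9.04 in control cells. The others were 2 of Aldh6a1, both lower in floxed cells, and 1 each of Aldh1a3, Aldh2 and Aldh4a1, all higher. The smallest unadjusted limma p was 0.071, for the first probe set of Aldh6a1, with a log2 difference of -0.51.

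**Figure D3:**
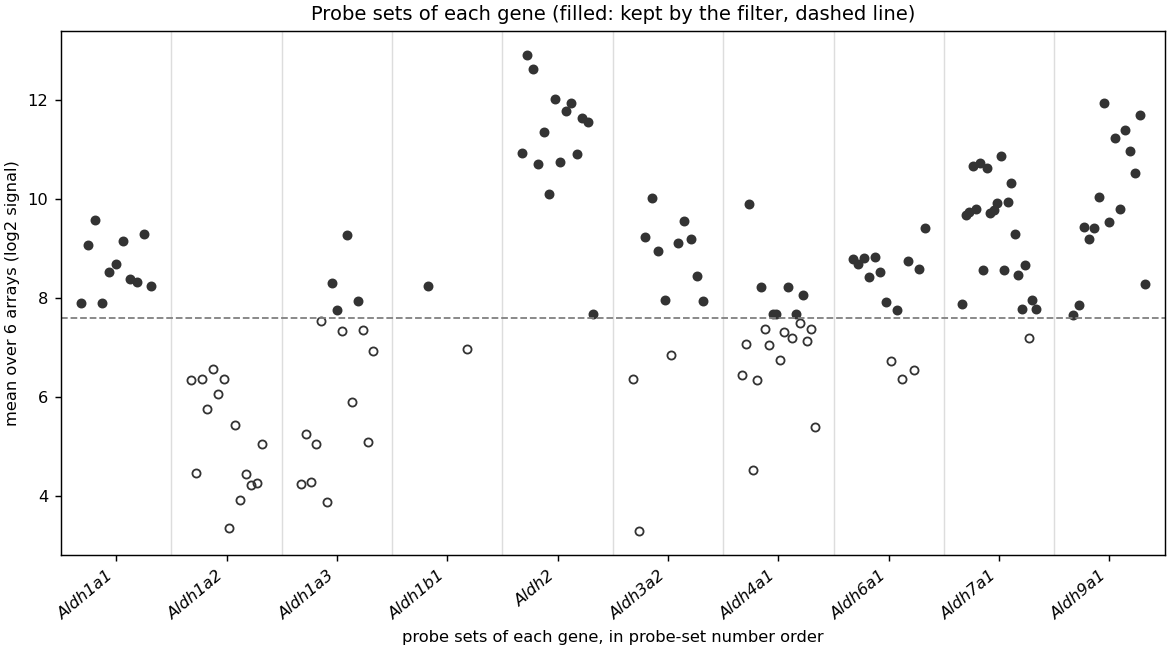
Mean log2 value over the 6 arrays (vertical axis) of each of the 139 probe sets, in number order within each gene. Filled points passed the filter at 7.60 (dashed line): all of Aldh1a1, Aldh2 and Aldh9a1, and none of Aldh1a2.

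Across the members, floxed replicate 3 stood high. Floxed replicate 3 was above the mean of the 6 arrays in 8 of 9 members, control replicate 2 in 7, control replicate 1 in 5, control replicate 3 in 3, and floxed replicates 1 and 2 in 2 each. Their mean deviation over the 9 members was -0.07, -0.12 and 0.18 on the floxed arrays, against 0.01, 0.12 and -0.11 on the control arrays. The granulocyte and macrophage markers were high on floxed replicate 3 and on control replicates 1 and 2, and low on floxed replicates 1 and 2 and on control replicate 3. Control replicate 1, high in these markers, had a mean deviation of 0.01 over the members, being the highest array in 2 and the lowest in 2. Over the 6 arrays, the Pearson r of a member with the mean of these markers ran from -0.70 for Aldh1a3 to 0.90 for Aldh7a1. The highest of those markers was Ngp, a neutrophil granule protein, at 10.91, 10.56 and 11.43 in floxed cells, against 12.32, 12.03 and 11.19 in control cells. The part of these cells in the members' values was not tested. Markers of B cells averaged 8.54, 8.65 and 9.20 on floxed arrays, against 9.63, 8.96 and 7.83 on control arrays, and those of erythroid cells and megakaryocytes 9.28, 9.27 and 9.70 on floxed arrays, against 9.59, 9.75 and 9.52 on control arrays.

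**Figure D4:**
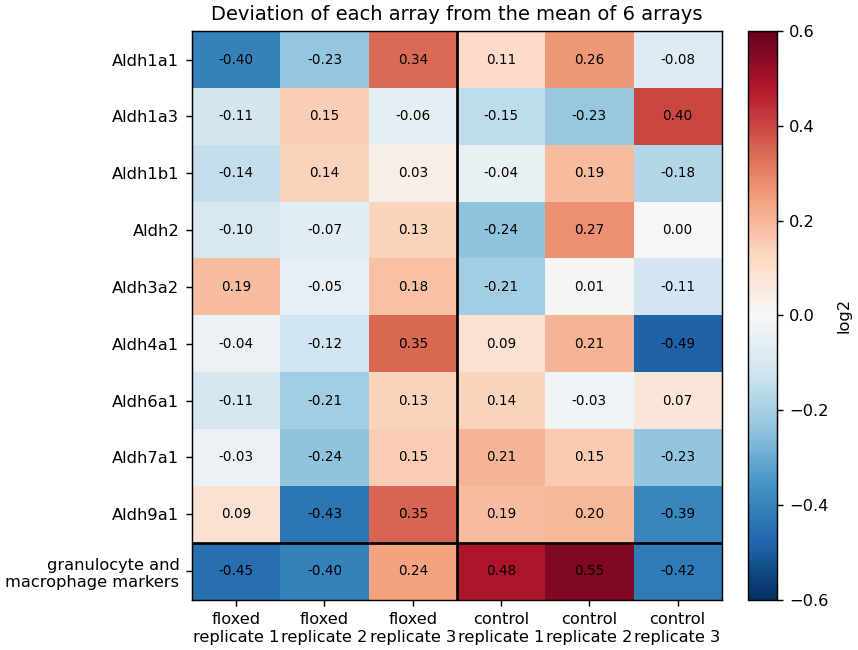
Deviation of each array from the mean of the 6 arrays (log2, colour and printed value) for the 9 tested aldehyde dehydrogenase genes and, in the bottom row, the mean of the granulocyte and macrophage markers; floxed arrays stand left of the line and control arrays right. The column of floxed replicate 3 is above 0 in 8 of 9 members.

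The arrays also differed along the length of genes. For genes with at least 8 kept probe sets, the rank correlation between a probe set's number and its deviation on an array was taken as a description. For control replicate 1 its median was 0.13 over 2296 genes on the plus strand and -0.13 over 2164 on the minus strand; for control replicate 3 it was -0.12 and 0.12, and for floxed replicate 3 it was 0.13 and -0.14. On floxed replicates 1 and 2 it lay between -0.02 and 0.00 on both strands. Among the members this tilt was large on control replicate 1, at 0.82 for Aldh1a1 (11 probe sets) and 0.44 for Aldh9a1 (15), both on the plus strand, and at -0.68 for Aldh6a1 (11) and -0.43 for Aldh3a2 (9), both on the minus strand. It was -0.84 for Aldh7a1 (21) and -0.49 for Aldh2 (14), whose strand the tables used here do not give. Single members also tilted on other arrays, Aldh2 at 0.78 on control replicate 2, Aldh7a1 at 0.70 on control replicate 3 and Aldh6a1 at 0.63 on floxed replicate 2. On floxed replicate 3 the 6 members lay between -0.28 and 0.36. When each of these 6 genes was tested on its lower-numbered and on its higher-numbered probe sets separately, the floxed minus control differences lay between -0.35 and 0.21 and the smallest limma adjusted p was 0.854. Aldh1a1 had the lowest of them, -0.35 in its lower-numbered and -0.11 in its higher-numbered probe sets.

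**Figure D5:**
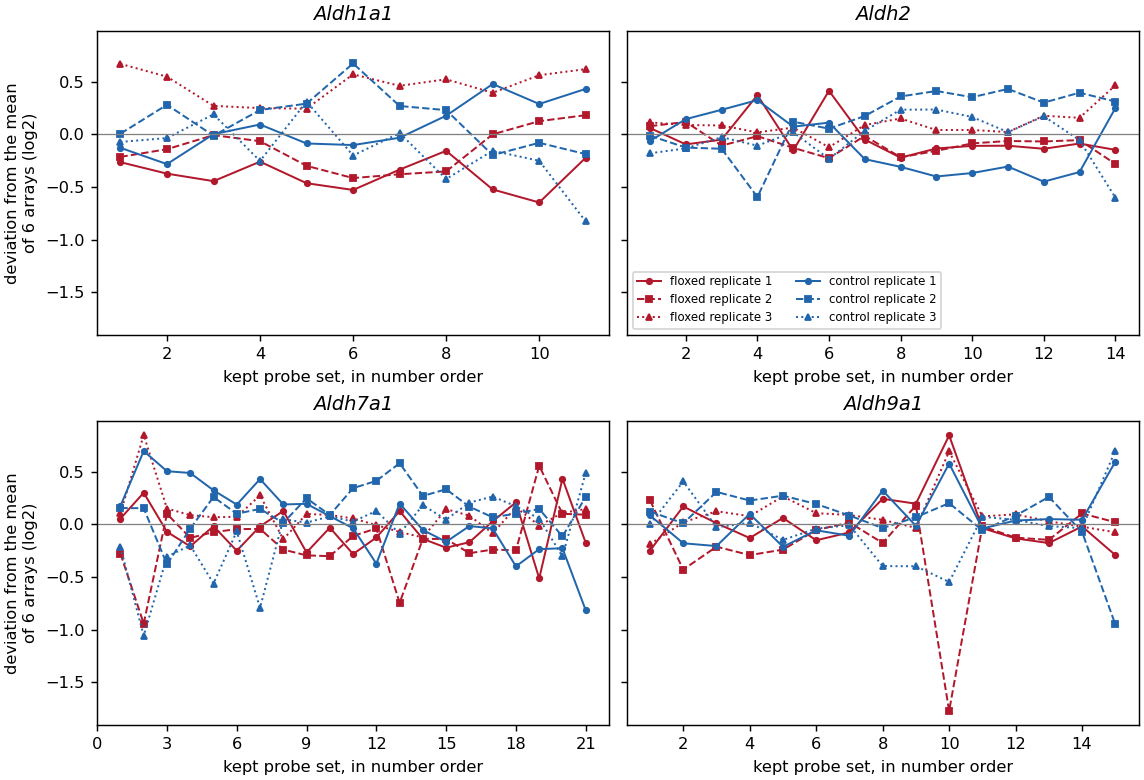
Deviation of each array from the mean of the 6 arrays (log2, vertical axis) for the kept probe sets of Aldh1a1, Aldh2, Aldh7a1 and Aldh9a1 in number order (horizontal axis). Control replicate 1 climbs along Aldh1a1 and descends along Aldh7a1, and floxed replicate 2 has its lowest point at the 10th probe set of Aldh9a1.

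By likeness over the 6 arrays, the genes nearest to Aldh3a2, the member of smallest p, were Atox1 (Pearson r 0.992), Ndel1 (0.986) and Pcmtd2 (0.983), and 10 of 14585 genes had an r above 0.95. Those nearest to Aldh9a1, the member of largest spread, were Atp5o (0.991), Mapk9 (0.986) and Uhrf1bp1l (0.986), with 33 genes above 0.95. These are descriptions over 6 arrays that share 2 groups.

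Genes around these enzymes were read from 5 lists. In limma 0 genes of any list passed the adjusted threshold or had an unadjusted p under 0.05. Over all genes 0% and 3.7% did, and 7903 of 14586 lay higher in floxed means. Of the 11 other aldehyde dehydrogenase genes 9 were tested, 4 higher and 5 lower in floxed means, with a median log2 difference of -0.08, which turned to 0.13 without the filter and lay between -0.15 and -0.01 when 1 array was left out. Aldh16a1, a family member thought to lack catalytic activity in mammals, read 8.46, 8.68 and 8.53 in floxed cells, against 8.11, 8.52 and 8.16 in control cells, a log2 difference of 0.29 (SE 0.17). Aldh3b1, which acts on lipid aldehydes, read 7.67, 7.87 and 8.32 in floxed cells, against 8.29, 8.58 and 7.93 in control cells, a log2 difference of -0.31 (SE 0.23). Both overlapped between groups.

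In the retinoid list, the supply, receptors and breakdown of retinoic acid, 15 of 22 genes were tested, 4 higher and 11 lower, with a median of -0.04. Cyp26c1, an enzyme that degrades retinoic acid, read 7.72, 7.63 and 7.66 in floxed cells, against 7.78, 8.17 and 8.17 in control cells, a log2 difference of -0.37 (SE 0.19). Its groups did not overlap, and its level was near the filter. Stra6, the retinol transporter, read 9.36, 9.69 and 9.69 in floxed cells, against 9.51, 9.999 and 10.17 in control cells, a difference of -0.31 (SE 0.18) with overlap.

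Other enzymes of alcohols and carbonyls gave 6 higher and 7 lower of 13 tested, with a median of -0.01. That median moved to 0.11 with the filter at the 75th percentile, to 0.0532 with array weights and to 0.0881 without control replicate 1. Xdh, xanthine dehydrogenase, had a log2 difference of -0.31 (SE 0.24), and Akr1a1, an aldehyde reductase, one of 0.16 (SE 0.13). The Fanconi anaemia genes, which repair the DNA crosslinks aldehydes make, were all tested. Of these, 11 of 14 were higher in floxed means, against 7903 of all 14586 genes, and the median of the list was 0.11. Fancb, a core complex subunit, read 8.50, 7.97 and 8.06 in floxed cells, against 8.17, 7.46 and 7.01 in control cells, a log2 difference of 0.63 (SE 0.28). Its level was near the filter of 7.60, with a control mean of 7.55 below it and a floxed mean of 8.18 above it. The filter acts on the mean over the 6 arrays, and whether probe sets of Fancb were kept only through the floxed arrays was not tested. Fancl, the ubiquitin ligase of the same complex, read 8.73, 8.74 and 8.55 in floxed cells, against 8.66, 8.14 and 8.09 in control cells, a difference of 0.37 (SE 0.19). In both genes control replicate 1 lay among the floxed arrays. The median of the Fanconi list was -0.0645 with the filter at the 75th percentile and 0.26 without a filter. Leaving out control replicate 1 gave 0.24, leaving out floxed replicate 2 gave 0.0559 and leaving out control replicate 3 gave 0.0088.

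Of the genes beside the members in amino acid, carnitine and sphingolipid pathways, 15 of 20 were tested, 7 higher and 8 lower, with a median of 0.00 to 2 decimals. That median moved to 0.11 with the mean of the probe sets, to 0.13 without control replicate 1 and to -0.10 without control replicate 3. Pycr1, which makes proline from the compound that Aldh4a1 oxidises, read 8.18, 8.37 and 8.16 in floxed cells, against 8.67, 8.44 and 8.52 in control cells, a log2 difference of -0.31 (SE 0.16) with groups that did not overlap. Slc22a5, the carnitine importer, had a difference of 0.32 (SE 0.22) with overlap.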

How the data were processed

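Total RNA from sorted cells was labelled as biotinylated cRNA from 100 ng, per the labels' protocols. The authors deposited log2 values for 241576 probe sets on 6 arrays; the base of the logarithm was inferred from their range of 2.44 to 14.53. The submitters' processing notes name MAS5, without role or version, and the other steps are not given in the sources used here. Groups and replicate numbers come from the sample titles. A platform annotation named the genes, updated through RefSeq symbols (17621 of 20416 current, 2742 updated, 53 unmatched); probe sets with several genes (4475) or none (25004) stayed out of gene values. Probe positions are not printed, because the annotation gives no genome build.

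No further normalization was applied. Values were tested, floxed minus control, with limma 3.58.1 in R 4.3.3 (two-sided, lmFit, then eBayes given a mean-variance trend). Benjamini-Hochberg adjustment ran over all features, with a threshold of 0.05. The steps were tested on simulated data with independent noise and planted changes larger than the members' differences. That simulation therefore does not cover changes of the members' size. The number of arrays limits the precision. Named genes were the 10 members, Ctnnb1, the 2 genes of smallest p in each pathway list, the highest marker in the marker lists described, and the 3 genes most like the members of smallest p and of largest spread. Tests and alternatives followed the plan, and the split into lower- and higher-numbered probe sets was added after the data were seen. The members and lists were chosen with earlier results of these data known.

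Markers of T and NK cells gave 1 higher and 5 lower of 6 tested (median -0.18, highest Nkg7). Stroma and endothelium gave 3 and 5 of 8 (-0.01, Pecam1), and B cells 5 and 4 of 9 (0.01, Cd79b). Erythroid cells and megakaryocytes gave 1 and 9 of 10 (-0.21, Car1), and stem cells 5 and 4 of 9 (0.02, Kit). Over all genes 7903 lay higher and 6683 lower. In limma 0 of these markers passed the threshold. There were 2 erythroid or megakaryocyte markers and 1 stem cell marker at an unadjusted limma p under 0.05, against 3.7% of all genes. Deviations of same-numbered arrays correlated at 0.20, 0.00 and -0.24, so the numbers were not taken as pairs. The highest values were between different numbers, 0.29 for floxed replicate 2 with control replicate 3 and 0.28 for floxed replicate 3 with control replicate 2.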

Additional observations from a re-analysis of the deposited data

How the results depend on the processing

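No aldehyde dehydrogenase gene or probe set passed the threshold in limma under any alternative run, and the smallest adjusted p of a member was 0.193, for Aldh2 with array weights (log2 difference -0.24, unadjusted p 0.0366). Over all genes 0 passed in the setting reported, 2 without the filter and 1 with the mean of the probe sets. With array weights 404 passed (weights of 1.18, 2.06 and 1.13 for floxed and 0.27, 3.37 and 0.40 for control arrays). When 1 array was left out 0 to 2 passed, with 2 without control replicate 1. In that last fit 2443 of 14695 genes had an unadjusted limma p under 0.05, against 0 of the 9 members. Over probe sets 5 passed, all of Ctnnb1, against 6 without the filter and 4 or 5 when 1 array was left out. With the filter at the 75th percentile 0 passed. That filter acts on the mean over the 6 arrays, and the 5 Ctnnb1 probe sets were low on floxed arrays, with averages of 5.72 to 6.36. With the replicate number as a block, 0 genes passed. Every replicate number held a floxed and a control array, so the block could change only the SE and p, not the difference.

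Directions of small differences turned, and the cause was not tested. With array weights the log2 difference was 0.18 for Aldh1a3, -0.10 for Aldh1b1, -0.11 for Aldh4a1 and -0.23 for Aldh9a1. Quantile normalization gave -0.0186 for Aldh1b1 and -0.0295 for Aldh9a1, and equal array medians gave -0.0115 and -0.027. Without the filter Aldh1a3 was at 0.31. The filter at the 75th percentile gave 0.0155 for Aldh2, -0.0785 for Aldh3a2, -0.20 for Aldh4a1 and -0.10 for Aldh9a1. The mean of the probe sets gave -0.0598 for Aldh9a1, and the higher-numbered probe sets alone gave 0.0191 for Aldh2 and -0.0754 for Aldh9a1. Leaving out 1 array gave -0.42 to -0.045 for Aldh1a1, -0.31 to 0.40 for Aldh1a3, -0.0634 to 0.12 for Aldh1b1, -0.15 to 0.11 for Aldh2, -0.0857 to 0.22 for Aldh4a1, -0.22 to 0.0165 for Aldh7a1 and -0.19 to 0.22 for Aldh9a1. The sign of Aldh1a1 and Aldh6a1 was the same in all 17 alternatives run, but not all of these could turn it. Fits without the mean-variance trend, with robust variance estimates and with the replicate block leave every difference as it is. The fit without the filter does so for Aldh1a1, which kept all its probe sets. Aldh1a3 without control replicate 3 had an unadjusted limma p of 0.0394 (adjusted 0.998). The number of arrays limits what could be detected, and without detection calls the dim probe sets of Aldh1a2 could not be called absent.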
